A study of Mus musculus with 15 samples.

Results

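The 8 genes followed here mark fibroblasts of the adventitia, the outer coat of the artery: Dpt, Clec3b, Cd34, Cd248, Pdgfra, Pi16, Dpep1 and Ly6a. They were taken as a named list, chosen with earlier results of these data known. Each was read from the probe set that names that gene alone, the brightest over the arrays where there were several. Of the 8 genes 7 were measured, among 22180 genes in all, each by 1 such probe set. Ly6a, the Sca-1 antigen of mouse progenitor cells, had no probe set of that name and was not analysed here.

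The arrays hold total RNA from aortas of DBA/2NCrl mice, aged 8 weeks when the diets began and fed them for 5 days. There were 4 arrays of abdominal aorta on a high-phosphate diet (HPD, 20.2 g of phosphorus per kg), 4 of abdominal aorta on standard chow (SCD, 7.0 g per kg), 3 of thoracic aorta on HPD and 4 of thoracic aorta on SCD. Beyond the strain no allele or agent is given for any group. The labels call the arrays biological replicates but do not say whether animals were pooled or gave both segments, so p-values measure the spread between these arrays, which may be partly technical. Levels are log2 intensities after robust multi-array averaging (RMA), and the number of arrays limits their precision. A level is comparable between arrays for 1 gene, and not between genes.

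The adventitia is a layer of fibroblasts, collagen, small vessels, nerves and immune cells around the smooth muscle of the media, and it grades into the fat that surrounds the vessel. Its fibroblasts make the collagen-rich sheath of the aorta. In mice, adventitial cells that carry Pi16, Cd34, Ly6a and Pdgfra have been described as progenitor-like cells that can give rise to more specialised fibroblasts.

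The windows around the transcription start are printed for the 4 genes whose level passed the test on diet and that have an entry in the RefSeq promoter table (GRCm38.p6), 3 of them lower and 1 higher on HPD in the abdominal segment. Each runs from 250 bases before to 50 bases after the table's start site, 5′ to 3′ on the plus strand, with matches to the searched motifs in capitals. Dpt lies at chr1:164796413-164796712, Cd34 at chr1:194938571-194938870, Pi16 at chr17:29318632-29318931 and Dpep1 at chr8:123185985-123186284.
Dpt: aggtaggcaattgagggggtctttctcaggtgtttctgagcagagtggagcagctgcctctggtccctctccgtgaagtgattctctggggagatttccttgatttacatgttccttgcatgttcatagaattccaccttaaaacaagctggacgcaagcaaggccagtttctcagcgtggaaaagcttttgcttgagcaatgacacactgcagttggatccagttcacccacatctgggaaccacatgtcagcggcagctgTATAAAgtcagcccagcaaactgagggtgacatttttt
Cd34: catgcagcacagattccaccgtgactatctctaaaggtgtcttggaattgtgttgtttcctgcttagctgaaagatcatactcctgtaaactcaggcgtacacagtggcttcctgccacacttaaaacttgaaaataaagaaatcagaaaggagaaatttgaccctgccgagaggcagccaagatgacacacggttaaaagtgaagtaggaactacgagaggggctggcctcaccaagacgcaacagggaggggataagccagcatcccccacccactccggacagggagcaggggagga
Pi16: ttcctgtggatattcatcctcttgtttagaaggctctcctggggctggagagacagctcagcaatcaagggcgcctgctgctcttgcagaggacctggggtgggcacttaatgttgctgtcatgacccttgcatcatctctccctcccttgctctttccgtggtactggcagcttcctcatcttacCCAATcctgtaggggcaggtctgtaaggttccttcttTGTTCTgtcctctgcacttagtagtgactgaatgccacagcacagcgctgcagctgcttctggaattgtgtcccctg
Dpep1: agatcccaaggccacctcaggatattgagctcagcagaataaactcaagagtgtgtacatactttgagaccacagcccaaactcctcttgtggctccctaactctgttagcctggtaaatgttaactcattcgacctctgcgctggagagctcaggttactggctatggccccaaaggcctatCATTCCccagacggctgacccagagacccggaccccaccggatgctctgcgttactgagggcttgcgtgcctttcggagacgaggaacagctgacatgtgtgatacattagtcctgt

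In all, 6 motifs were searched on both strands, and their background is the 32851 windows of the table. The TATA box, TATAAA, occurred in 13.6% of these windows. The sequence CCAAT, which is bound by the factor NF-Y, occurred in 37.4%. The GC box was searched as GGGCGG and was found in 35.7%. For AP-1 the letters TGANTCA were found in 7.81%, for a half-site of the glucocorticoid receptor AGAACA in 19.0%, and for TEAD factors the letters CATTCC in 14.7%. The Dpt window held TATAAA, beginning at base 13 counted from the start site as base 1. The Pi16 window held CCAAT, beginning at base -64, and the receptor half-site on the other strand, TGTTCT, beginning at base -27. The Dpep1 window held CATTCC, beginning at base -67. None of the 6 motifs was found in the Cd34 window or in that of Pdgfra, and no match overlapped another. The table matched 5 of the 8 genes. A match is a match of letters alone, and binding was not measured.

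The mean of 28 pan-fibroblast genes lay between 7.79 and 8.56 over the 15 arrays, and smooth muscle of the media also makes some of these matrix proteins. Myh11, the smooth muscle myosin heavy chain, was at 10.35 to 11.13 in abdominal HPD, 10.45 to 11 in abdominal SCD, 11.36 to 11.49 in thoracic HPD and 11.28 to 11.33 in thoracic SCD arrays. Marker lists of other tissues differed between arrays. The mean level of 9 brown adipocyte genes was 7.37 to 8 in abdominal HPD, 9.08 to 9.54 in abdominal SCD, 8.23 to 8.9 in thoracic HPD and 9.46 to 9.8 in thoracic SCD arrays. Averaged over 11 genes, the T and NK cell list stood at 8.27, 8.33, 6.21 and 7.84 in the abdominal HPD arrays, against 5.7, 7.44, 6.12 and 8.02 in the abdominal SCD arrays. In the thoracic arrays it stayed between 5.57 and 5.93 on HPD and between 5.68 and 5.8 on SCD. Hepatocyte genes, 11 in the list, averaged 8.54 and 10.5 in abdominal HPD arrays 3 and 4, against 5.38 and 5.46 in the other abdominal HPD arrays and 5.22 to 5.5 in the abdominal SCD arrays. The fits that bear on these lists are given beside the results they touch.

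In the abdominal aorta, 4 of the 7 fibroblast genes fell on HPD and 1 rose. Cd248, Dpt, Pi16 and Cd34 were lower by factors between 1.72 and 2.22, while Dpep1 was 2.02-fold higher, and Pdgfra and Clec3b did not pass the test. A gene was called at an adjusted p under 0.05, by limma with Benjamini-Hochberg adjustment over all 22180 genes, by which rule 7.01% of all genes were called, 1.95% as higher and 5.06% as lower. The HPD and SCD arrays did not overlap for these 5 genes, against 11.9% of all genes. The median change of the 7 genes was -0.78 on the log2 scale, and that of all genes was -0.008. In bulk tissue, fewer cells of a type and less RNA per cell cannot be told apart.

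Dpt encodes dermatopontin, a small matrix protein that binds decorin and collagen and helps fibrils assemble. Its log2 level was 9.57, 9.58, 9.82 and 9.43 in the abdominal HPD arrays, against 10.83, 10.83, 10.62 and 10.57 in the abdominal SCD arrays. Every HPD array lay below every SCD array. The log2 change was -1.11 ± 0.122 (SE; 95% interval -1.38 to -0.85), a level 2.17-fold lower, with a limma adjusted p of 8.89e-05.

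Clec3b encodes tetranectin, a secreted lectin-like protein that binds plasminogen. Its level was 6.26, 6.09, 5.99 and 6.2 in the abdominal HPD arrays and 6.33, 6.46, 6.31 and 6.23 in the abdominal SCD arrays. The groups overlapped at 1 array each. The log2 change of -0.2 ± 0.0805 (SE; 95% interval -0.37 to -0.03) had a limma p of 0.0262 before adjustment, which 20.0% of all genes passed at 0.05, and of 0.175 after it.

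Of the surface glycoproteins, Cd34 encodes a sialomucin shared by fibroblast progenitors, vessel endothelium and blood stem cells. Its level was 8.64, 8.39, 8.67 and 8.4 in the abdominal HPD arrays, against 9.55, 9.3, 9.24 and 9.12 in the abdominal SCD arrays. The groups did not overlap, and the log2 change was -0.78 ± 0.103 (SE; 95% interval -1 to -0.56; limma adjusted p = 0.000295). A second probe set that names Cd34 together with a predicted gene was lower in the same direction, at 5.96 to 6.24 in HPD arrays and 6.42 to 6.66 in SCD arrays, and was not tested.

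Cd248 encodes endosialin, a transmembrane glycoprotein of fibroblasts and pericytes. It stood at 7.11, 6.93, 7.3 and 7.32 in the abdominal HPD arrays, against 8.6, 8.28, 8.29 and 8.11 in the abdominal SCD arrays. All 4 HPD arrays were below all SCD arrays by a wide margin compared with the spread within either group. The log2 change was -1.15 ± 0.117 (SE; 95% interval -1.4 to -0.9; limma adjusted p = 5.7e-05), or 2.22-fold lower.

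Pdgfra encodes the receptor alpha for platelet-derived growth factors, a receptor widely used as a marker of fibroblasts. It was measured at 8.33, 8.13, 8.02 and 8.04 in the abdominal HPD arrays and at 8.4, 8.48, 8.14 and 8.37 in the abdominal SCD arrays, and the groups overlapped. The log2 change was -0.22 ± 0.134 (SE; limma adjusted p = 0.4), and its 95% interval, -0.51 to 0.07, does not reach the changes estimated for Dpt, Cd34, Pi16 or Cd248. That comparison between genes was not itself tested.

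Pi16 encodes peptidase inhibitor 16, a member of the CAP family that marks a fibroblast state found around vessels of many mouse tissues. It was at 6.77, 6.55, 7.24 and 6.94 in the abdominal HPD arrays, against 7.88, 7.76, 7.65 and 7.41 in the abdominal SCD arrays. The groups did not overlap, though HPD array 3 and SCD array 4 came close. The log2 change was -0.8 ± 0.138 (SE; 95% interval -1.09 to -0.5; limma adjusted p = 0.00217), or 1.74-fold lower.

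Dpep1 was the exception in direction. It encodes a dipeptidase anchored to the cell surface that cleaves leukotriene D4 and cysteinyl-glycine, and it is also abundant in the proximal tubule of the kidney. Its level was 7.74, 8.14, 8.51 and 7.91 in the abdominal HPD arrays, against 7.35, 7.33, 6.58 and 6.99 in the abdominal SCD arrays. Every HPD array was above every SCD array, and the log2 change was 1.01 ± 0.207 (SE; 95% interval 0.57 to 1.45; limma adjusted p = 0.00725). The mean of 8 renal tubule genes stayed between 4.97 and 5.38 over all 15 arrays.

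**Figure D1:**
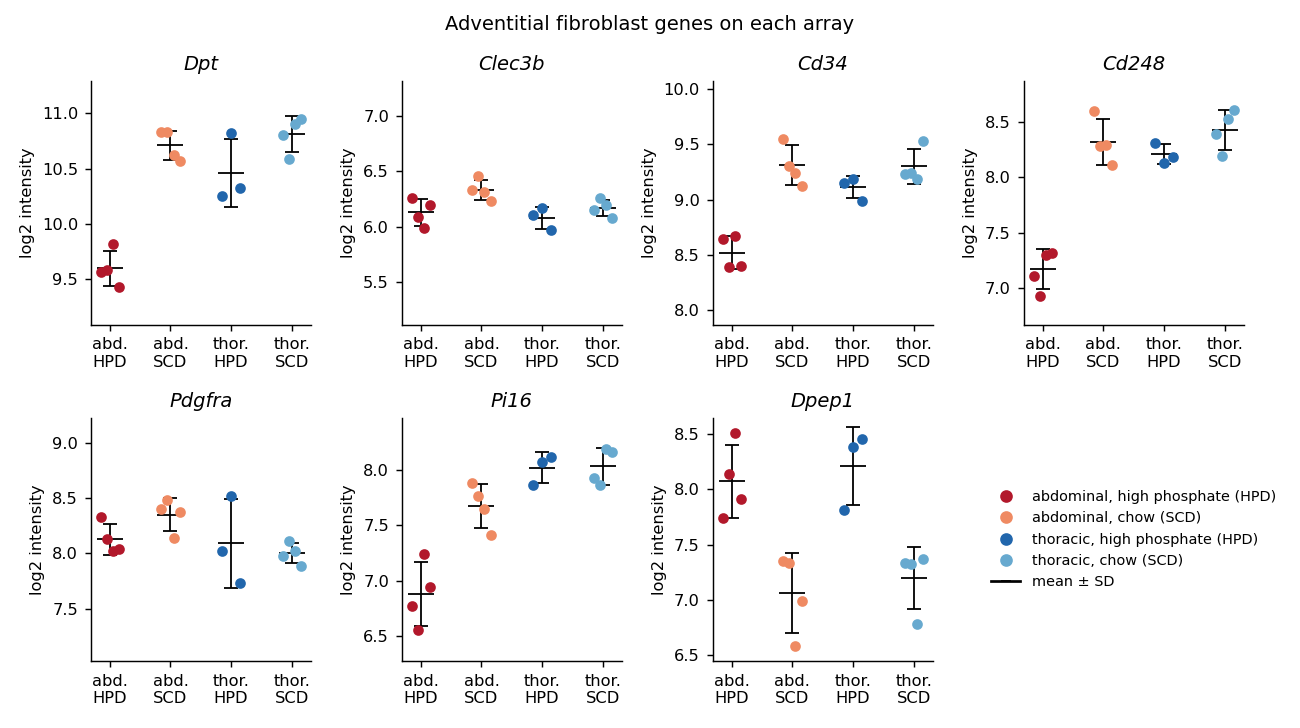
Log2 intensity (vertical axis) of the 7 measured genes in each of the 15 arrays, 1 panel per gene, with arrays grouped by segment and diet; points are single arrays and bars the group mean with SD. The abdominal HPD arrays lie below all other groups for Dpt, Cd34, Cd248 and Pi16, while both HPD groups lie above both SCD groups for Dpep1.

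The abdominal values also moved with the adipocyte and lymphocyte lists. With the 2 adipocyte list means as covariates, 0 of the 7 genes and 0 of all genes passed the limma test at the adjusted threshold, and 1 of the 7 and 1511 of all genes had an unadjusted p under 0.05. The log2 changes there were -1.07 for Dpt, -0.5 for Cd34, -0.6 for Pi16, -0.82 for Cd248 and 1.25 for Dpep1. The adipocyte means of the HPD and SCD arrays did not overlap in this segment, so the 2 cannot be told apart by such a fit. With the average lymphocyte marker level as a covariate, all 5 genes were still called, with log2 changes of -1.06 for Dpt, -0.71 for Cd34, -0.65 for Pi16, -1.05 for Cd248 and 1.12 for Dpep1.

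Leaving out the 5 abdominal arrays with high lymphocyte markers left 1 HPD array (array 3) against 2 SCD arrays (arrays 1 and 3), and the spread of the lone array was then borrowed from the other groups. In that fit 1 of the 7 genes was called, Cd248, at -1.14 (limma adjusted p = 0.0225). Dpt at -0.91, Cd34 at -0.73, Pi16 at -0.52 and Dpep1 at 1.54 kept their direction, with limma adjusted p between 0.0872 and 0.279. Without abdominal HPD arrays 3 and 4, the arrays with high hepatocyte markers, all 5 genes were called. HPD array 3, low in lymphocyte markers, was the highest abdominal HPD array for Dpt, Cd34 and Pi16, and not for Cd248. It was also the highest of them for the smooth muscle list mean, at 8.67. Its mean of 5 lymph node stroma and vessel genes was 7.91. That mean was 8.39 to 8.55 in the other abdominal HPD arrays and 6.83 to 6.98 in the thoracic HPD arrays. The fits on lymphocyte markers did not use that list. SCD array 4, high in lymphocyte markers, was the lowest abdominal SCD array for Dpt, Cd34, Pi16 and Cd248. SCD array 2 was also high in these markers, and SCD array 3 was low. Array 2 lay above array 3 for Dpt (10.83 against 10.62), Cd34 (9.3 against 9.24) and Pi16 (7.76 against 7.65), and not for Cd248. HPD array 3 and SCD array 4 were the nearest arrays of the diets for Dpt (9.82 against 10.57) and Pi16 (7.24 against 7.41). This restates that the groups did not overlap, and the part of lymphocyte content was not tested.

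**Figure D2:**
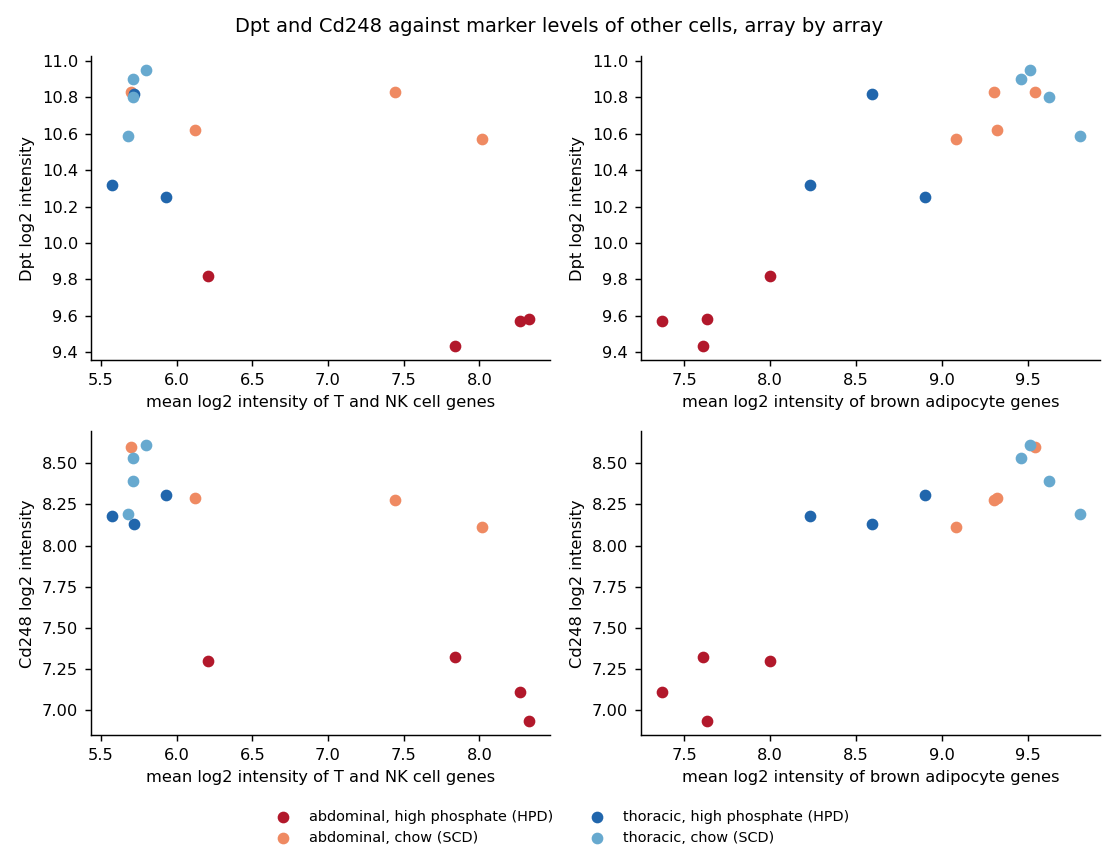
Log2 intensity of Dpt (upper panels) and Cd248 (lower panels) on the vertical axes against the mean log2 intensity of T and NK cell genes (left) and brown adipocyte genes (right), with 1 point per array coloured by segment and diet. Abdominal HPD array 3, with a T and NK cell mean of 6.21, lies apart from the other abdominal HPD arrays (7.84 to 8.33) on the horizontal axis and near them on the vertical axis, and the abdominal HPD arrays are lowest on both axes of the brown adipocyte panels.

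In the thoracic aorta, 1 of the 7 genes was called, Dpep1, which rose 2.02-fold on HPD. Dpt, Cd34, Cd248, Pi16, Pdgfra and Clec3b did not pass the test there. The rule called 2.47% of all genes in this comparison, 1.39% as higher and 1.08% as lower. The median log2 change of the 7 genes was -0.09, and that of all genes was -0.011.

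Dpep1 stood at 7.81, 8.38 and 8.45 in the thoracic HPD arrays, against 7.33, 7.32, 6.78 and 7.37 in the thoracic SCD arrays. The groups did not overlap, and the log2 change was 1.01 ± 0.224 (SE; 95% interval 0.54 to 1.49; limma adjusted p = 0.0264). This call depended on single arrays: it held without HPD array 1 (adjusted p = 0.0179) and was lost without any other of the 7 arrays, with log2 changes from 0.87 to 1.07 and limma adjusted p from 0.0523 to 0.12. It was also lost with the adipocyte covariates, at 0.97 (limma adjusted p = 0.68). The brown adipocyte means did not overlap between the thoracic diets (8.23 to 8.9 on HPD, 9.46 to 9.8 on SCD). Such a fit therefore cannot tell diet and that mean apart in this segment either.

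Dpt was at 10.25, 10.82 and 10.32 in the thoracic HPD arrays and at 10.8, 10.59, 10.9 and 10.95 in the thoracic SCD arrays. HPD array 2 lay among the SCD arrays, and the other HPD arrays lay below them. The log2 change of -0.35 ± 0.132 (SE; 95% interval -0.63 to -0.07) had a limma adjusted p of 0.223. Without HPD array 2 it was -0.53 with a limma adjusted p of 0.0481.

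None of the other genes passed in the thoracic aorta. Cd34 was at 9.15, 9.19 and 8.99 in the thoracic HPD arrays and at 9.23, 9.24, 9.19 and 9.53 in the thoracic SCD arrays. These 2 groups did not overlap, by less than the rounding of these values, which holds for 13.8% of all genes in this comparison, and the log2 change was -0.18 ± 0.112 (SE; limma adjusted p = 0.53). Cd248 was at 8.31, 8.13 and 8.18 in the thoracic HPD arrays and at 8.39, 8.19, 8.53 and 8.61 in the thoracic SCD arrays, with a log2 change of -0.22 ± 0.127 (SE; limma adjusted p = 0.484).

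Pi16 was at 7.86, 8.07 and 8.12 in the thoracic HPD arrays and at 7.93, 7.86, 8.19 and 8.16 in the thoracic SCD arrays, ranges that nearly coincide. Its log2 change was -0.02 ± 0.149 (SE; 95% interval -0.33 to 0.3; limma adjusted p = 0.981). Pdgfra spread widely on HPD, at 8.02, 8.52 and 7.73 in the thoracic HPD arrays, against 7.98, 8.11, 8.02 and 7.89 in the thoracic SCD arrays, and its log2 change was 0.09 ± 0.145 (SE; limma adjusted p = 0.876). Clec3b was at 6.11, 6.17 and 5.97 in the thoracic HPD arrays and at 6.15, 6.26, 6.2 and 6.08 in the thoracic SCD arrays, with a log2 change of -0.09 ± 0.0869 (SE; limma adjusted p = 0.748).

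**Figure D3:**
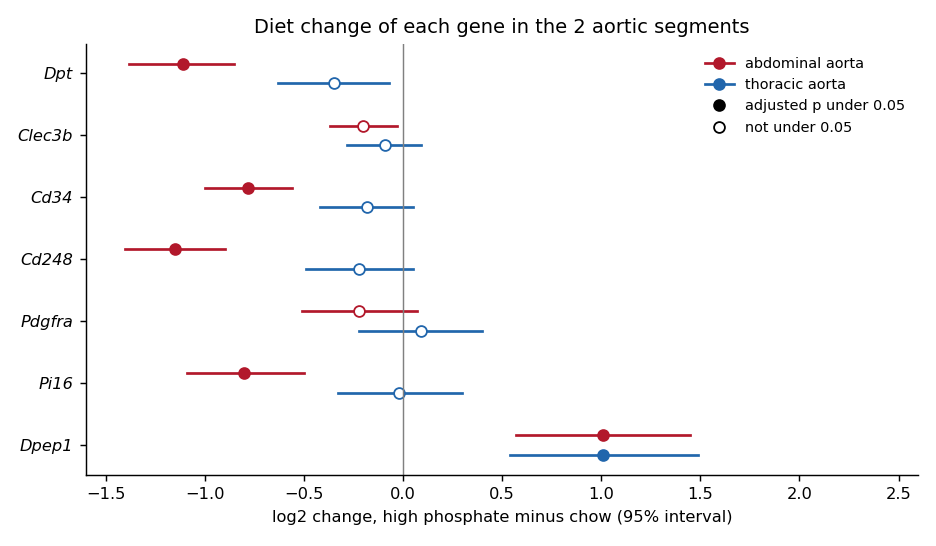
Log2 change of each gene on HPD against SCD (horizontal axis) in abdominal and thoracic aorta, with 95% intervals from limma. Dpep1 changed by 1.01 in both segments, while Cd248, Dpt, Pi16 and Cd34 lay between -1.15 and -0.78 in the abdominal and between -0.35 and -0.02 in the thoracic segment.

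The difference between the diet changes of the segments, abdominal minus thoracic, was tested as an interaction. By limma with adjustment over all genes, 0 of the 7 genes and 0 of all 22180 genes (0%) were called. At an unadjusted p under 0.05, 4 of the 7 genes and 5.49% of all genes passed. Cd248 had the smallest p of all genes, with a difference of -0.93 ± 0.173 (SE; 95% interval -1.3 to -0.56), a limma p of 7.91e-05 before and 0.705 after adjustment. Pi16 differed by -0.78 ± 0.203, Dpt by -0.77 ± 0.18 and Cd34 by -0.6 ± 0.152 (SE), each with a limma adjusted p of 0.773. For Dpep1 the difference was 0 ± 0.305 (SE), with a 95% interval from -0.65 to 0.65, which leaves room for unequal changes in either direction.

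Between segments on HPD, thoracic minus abdominal, Pi16, Cd248, Dpt and Cd34 were higher in the thoracic aorta, 4 of the 7 genes, where the rule called 13.8% of all genes and 7.57% as higher. Pi16 averaged 8.02 ± 0.14 in thoracic HPD arrays (SD, n = 3) and 6.88 ± 0.29 in abdominal HPD arrays (SD, n = 4), a log2 difference of 1.14 ± 0.149 (SE; limma adjusted p = 0.000303). Cd248 averaged 8.21 ± 0.09 in thoracic and 7.17 ± 0.18 in abdominal HPD arrays, a difference of 1.04 ± 0.127 (SE; limma adjusted p = 0.000196). The corresponding differences were 0.87 ± 0.132 for Dpt (SE; limma adjusted p = 0.000928) and 0.59 ± 0.112 for Cd34 (SE; limma adjusted p = 0.00351). For these 4 genes the thoracic and abdominal HPD arrays did not overlap, against 23.8% of all genes. This comparison and the abdominal diet comparison share the abdominal HPD arrays. The mean of 11 smooth muscle genes was 9.05 to 9.26 in thoracic and 7.99 to 8.67 in abdominal HPD arrays. Lists of other tissues differed more between the segments. On HPD the mean of 10 cardiac genes was 8.33 to 8.84 in thoracic and 5.93 to 6.1 in abdominal arrays, and 10 of 10 were called higher, with a median of 2.54. The mean of 11 sympathetic and chromaffin genes averaged 6.17 over the thoracic and 8.87 over the abdominal HPD arrays, and 10 of 11 were called lower, with a median of -3.25. Of 11 T and NK cell genes 8 were called lower, with a median of -1.93. The rule called 6.25% of all genes lower in this comparison. The part of the smooth muscle, cardiac and sympathetic lists in the result was not tested.

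Dpep1 averaged 8.21 ± 0.35 in thoracic and 8.07 ± 0.33 in abdominal HPD arrays (SD), and its difference of 0.14 ± 0.224 (SE) had a limma adjusted p of 0.732. Pdgfra at -0.04 ± 0.145 and Clec3b at -0.05 ± 0.0869 (SE) did not pass either. With the lymphocyte covariate, or without the 5 abdominal arrays with high lymphocyte markers, 2 of the 7 genes were called, Pi16 and Cd248, and 396 and 466 of all 22180 genes in these 2 fits. Dpt was at 0.73 with the covariate and 0.65 without the arrays, and Cd34 at 0.4 and 0.44. With the adipocyte covariates limma called 0 of the 7 and 17 of all genes, and 3 of the 7 and 2272 of all genes had an unadjusted p under 0.05.

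Between segments on SCD, again thoracic minus abdominal, 0 of the 7 genes were called by limma, where the rule called 4.78% of all genes, 1.76% as higher and 3.02% as lower. At an unadjusted p under 0.05, 2 of the 7 and 19.4% of all genes passed. Pi16 averaged 8.03 ± 0.17 in thoracic and 7.67 ± 0.2 in abdominal SCD arrays (SD, n = 4 each), a difference of 0.36 ± 0.138 (SE; limma adjusted p = 0.159). Pdgfra ran the other way, at 8 ± 0.09 in thoracic and 8.35 ± 0.15 in abdominal SCD arrays, a difference of -0.35 ± 0.134 (SE; limma adjusted p = 0.161). Its 2 groups did not overlap, against 12.0% of all genes. Dpt at 0.1 ± 0.122, Cd34 at -0.01 ± 0.103, Cd248 at 0.11 ± 0.117, Dpep1 at 0.14 ± 0.207 and Clec3b at -0.16 ± 0.0805 (SE) had limma adjusted p between 0.291 and 0.968.

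Ordered by group mean, the genes took 3 forms. For Dpt, Cd34, Cd248 and Pi16 the abdominal HPD group was lowest and did not overlap the group above it. Among the other 3 groups, neighbours in the order overlapped, except thoracic HPD and thoracic SCD for Cd34. For Dpep1 the thoracic and abdominal HPD groups overlapped at the top, and the thoracic and abdominal SCD groups overlapped at the bottom. Pdgfra and Clec3b had no step in their order, since neighbouring groups overlapped throughout for Pdgfra, and the group means of Clec3b spanned only 6.08 ± 0.1 (thoracic HPD) to 6.33 ± 0.09 (abdominal SCD).

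Across all 15 arrays the first of these forms was shared closely, as a description that includes the group differences. Pearson's r was 0.948 between Cd34 and Cd248, 0.943 between Dpt and Cd34, 0.933 between Dpt and Cd248 and 0.925 between Pi16 and Cd248. For Dpep1, r with these 4 genes lay between -0.54 and -0.264, but with the group means subtracted it lay between 0.052 and 0.458. Pdgfra and Clec3b were most like each other among the 7, at 0.714. With the group means subtracted r was 0.758 between Pi16 and Cd248, 0.628 between Cd34 and Cd248, 0.562 between Dpt and Cd34, 0.302 between Dpt and Cd248 and 0.665 between Pdgfra and Clec3b. All these values come from the same arrays and share whatever differs between them in tissue makeup.

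Over the 15 arrays, and among all genes, the closest to Dpt were Sparc (r = 0.982), which encodes a collagen-binding matrix protein, Col14a1 (0.971) and Col6a1 (0.963). For Pi16 they were its relative Pi15 (0.972), Nupr1 (0.969) and Fstl1 (0.968). The genes closest to Cd248 were Fndc1 (0.97), Mrpl42 (0.968) and Cnpy2 (0.967), and those closest to Cd34 were Anapc13 (0.966), Prdx2 (0.963) and Col6a1 (0.954). Dpep1 stood nearest to Sult1a1 (0.947), Hipk1 (0.943) and Klf9 (0.942), the last a transcription factor induced by glucocorticoids. Pdgfra was nearest to the mast cell protease gene Mcpt2 (0.879), and Clec3b to a histone gene, H2ac15 (0.862). All these values include the group differences. With group means subtracted, only H2ac15 of the genes named here stayed among the closest 3, at 0.858 with Clec3b. The closest to Dpep1 were then Itga5 (0.895), Tmbim7 (0.889) and Mrgprb1 (0.884), and those to Pi16 Tpm1 (0.949), Sntg2 (0.946) and Nexn (0.942). With group means subtracted, r with the mean of 28 pan-fibroblast genes was 0.89 for Dpt, 0.77 for Pi16 and 0.68 for Cd34. It was 0.53 for Dpep1, 0.52 for Cd248, 0.21 for Pdgfra and -0.2 for Clec3b. Pi16 followed the mean of the smooth muscle genes more closely, at 0.9, and Cd248 that of the mesothelial genes, at 0.76. Dpep1 and Pdgfra were closer to the mast cell genes, at 0.57 and 0.71, and Clec3b to the pan-adipocyte genes, at 0.47. Only for Dpt and Cd34 was no list compared closer than the pan-fibroblast list.

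The 28 pan-fibroblast genes, collagens and other matrix genes that fibroblasts of many tissues share and that include none of the 7, gave a wider view. In the abdominal aorta 13 fell on HPD, 0 rose and 15 did not pass, with a median log2 change of -0.38. Of all genes 5.06% were called lower there. Col3a1 changed by -1.39 ± 0.112 and Col6a3 by -1.07 ± 0.0846 (SE; limma adjusted p = 1.53e-05 for both). Col14a1 changed by -1.08 ± 0.125 (SE; adjusted p = 0.000132) and Col1a2 by -1.04 ± 0.12 (SE; adjusted p = 0.000128). These are the chains of fibrillar collagens and of collagens that bind them.

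The list mean was 7.79, 7.8, 8.06 and 7.82 in the abdominal HPD arrays, against 8.46, 8.37, 8.36 and 8.26 in the abdominal SCD arrays, and the groups did not overlap. The count was 12 with the lymphocyte covariate, 3 without the 5 abdominal arrays with high lymphocyte markers, 18 without HPD arrays 3 and 4, and 0 with the adipocyte covariates, all lower. In the thoracic aorta 4 of the 28 fell, against 1.08% of all genes, and 0 rose, with a median of -0.14. Those 4 were Col6a3 at -0.69 ± 0.0914, Col3a1 at -0.6 ± 0.121, Col15a1 at -0.65 ± 0.138 and Col1a1 at -0.49 ± 0.12 (SE; limma adjusted p from 0.00145 to 0.044). The list mean there was 8.21, 8.44 and 8.23 in the HPD arrays and 8.45, 8.39, 8.47 and 8.56 in the SCD arrays, which overlapped.

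**Figure D4:**
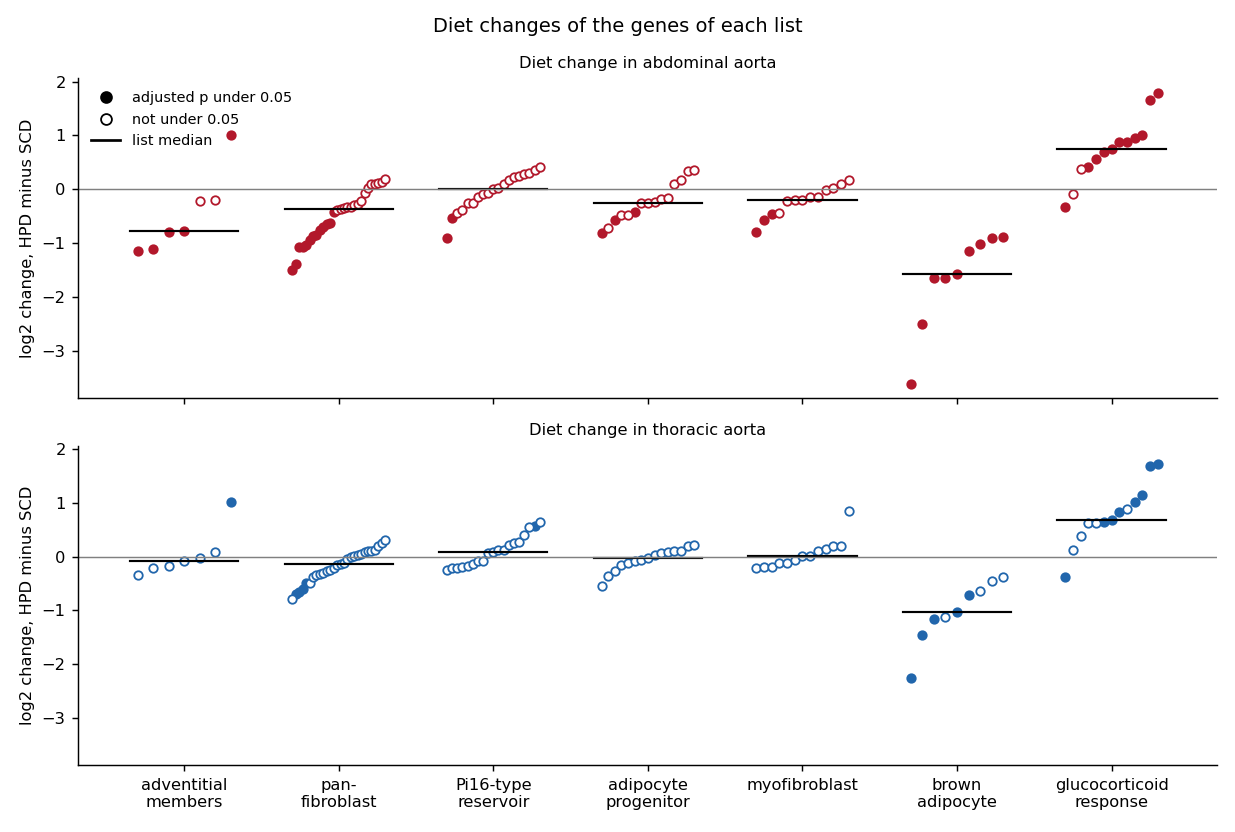
Log2 change on HPD against SCD of single genes in fibroblast and related gene lists (points), in abdominal and thoracic aorta, with the list median marked. The median of the 28 pan-fibroblast genes was -0.38 in the abdominal and -0.14 in the thoracic aorta, against all-gene medians of -0.008 and -0.011.

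The genes described as accompanying Pi16 in its fibroblast state, such as Dpp4 and Sema3c, formed a list of 19 measured genes. Over the 15 arrays Pi16 had an r of 0.25 with the mean of this list, against 0.92 with the pan-fibroblast mean. With group means subtracted these were 0.58 and 0.77. In the abdominal aorta 2 of the 19 genes fell on HPD, against 5.06% of all genes, and 0 rose, with a median of 0.01. Sema3c, a secreted guidance factor, changed by -0.9 ± 0.144 and Ackr3, a scavenger receptor for Cxcl12, by -0.53 ± 0.114 (SE; limma adjusted p = 0.00118 and 0.0103). In the thoracic aorta 1 rose, against 1.39% of all genes. It was Procr, the endothelial protein C receptor, at 0.57 ± 0.107 (SE; limma adjusted p = 0.012). Between segments on HPD 9 of the 19 were higher and 3 lower in the thoracic aorta, among them Mfap5 at 1.46 ± 0.208 and Uchl1, a gene also expressed by neurons, at -2.89 ± 0.373 (SE). This was 12 of 19 called, against 13.8% of all genes, and the count was 4 with the lymphocyte covariate, 2 without the 5 high-lymphocyte arrays and 0 with the adipocyte covariates. On SCD 2 were higher and 2 lower, against 1.76% and 3.02% of all genes, with Mfap5 at 0.8 ± 0.193 and Uchl1 at -3.26 ± 0.346 (SE). Sympathetic and chromaffin genes moved the same way as Uchl1, with 10 of 11 lower in thoracic than in abdominal HPD arrays and 9 of 11 lower on SCD, and their part in this value was not tested.

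Genes of adipocyte progenitors, which also carry Pdgfra and Cd34, numbered 15. In the abdominal aorta 3 of them fell on HPD, against 5.06% of all genes, with a list median of -0.25. Clec11a changed by -0.58 ± 0.109 (SE; limma adjusted p = 0.00405). Ebf2, a factor of brown fat precursors, changed by -0.81 ± 0.166 and Prdm16 by -0.43 ± 0.104 (SE; limma adjusted p = 0.00747 and 0.0216). Of 9 measured brown adipocyte genes 9 fell in this segment, and their part in these values was not tested. In the thoracic aorta 0 of the 15 passed by limma, and 2 had an unadjusted p under 0.05, as had 13.8% of all genes. Of 13 measured myofibroblast genes, 3 fell in the abdominal aorta, against 5.06% of all genes, and 0 rose. They were Postn at -0.8 ± 0.104, Lrrc15 at -0.58 ± 0.112 and Acta2 at -0.46 ± 0.125 (SE). Acta2 is also in the smooth muscle list, where 11 of 11 changes were below 0 and 1 gene was called lower. Without the 5 high-lymphocyte arrays the abdominal count of the adipocyte progenitor list was 1 and that of the myofibroblast list 0, and with the adipocyte covariates both were 0. With the lymphocyte covariate they were 2 and 3. In the thoracic aorta 0 of the 13 myofibroblast genes passed by limma, and 1 had an unadjusted p under 0.05.

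In the CAP family, to which Pi16 belongs, 2 of 10 measured genes were called in the abdominal aorta, against 7.01% of all genes. They were Pi16 itself and Pi15 at -1.05 ± 0.205 (SE; limma adjusted p = 0.00515). Of the CD34 family, Podxl, which encodes podocalyxin, fell in both segments, with log2 changes of -0.48 ± 0.114 in the abdominal and -0.51 ± 0.123 in the thoracic aorta (SE; limma adjusted p = 0.0166 and 0.039). Of the lectin-like receptors related to endosialin, Cd93 changed by -0.38 ± 0.0925 in the abdominal aorta (SE; limma adjusted p = 0.0219), and Thbd and Clec14a did not pass.

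In the system of platelet-derived growth factors, 2 of 7 genes fell in the abdominal aorta, against 5.06% of all genes. They were the ligand Pdgfd at -0.85 ± 0.196 and Pdgfrl, a receptor-like gene, at -0.59 ± 0.132 (SE; limma adjusted p = 0.015 and 0.0124). Neither Pdgfra nor the ligand Pdgfa, at -0.24 ± 0.0695 (SE; limma adjusted p = 0.0515), passed. Among 10 genes listed as partners of dermatopontin, 2 fell in the abdominal aorta, against 5.06% of all genes. They were the collagen I chains Col1a2 and Col1a1, both also in the pan-fibroblast list. Col1a1 had a log2 change of -0.86 ± 0.111 (SE; limma adjusted p = 0.000242). The other 8, decorin included, did not pass.

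Of 12 measured genes of leukotriene and glutathione breakdown, Dpep1 was the 1 that rose in the abdominal and in the thoracic aorta. Of all genes 1.95% and 1.39% were called higher there. Anpep, an aminopeptidase, fell in the abdominal aorta, with a log2 change of -0.43 ± 0.103 (SE; limma adjusted p = 0.0198). Dpep2, another dipeptidase gene, had a log2 difference of 0.4 ± 0.151 (SE) in the thoracic aorta and did not pass.

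Genes of the glucocorticoid response, a list that holds Klf9 and also the receptor gene Nr3c1, were called in both segments. In the abdominal aorta 10 of 13 were higher and 1 lower, against 1.95% and 5.06% of all genes, and in the thoracic aorta 7 were higher and 1 lower, against 1.39% and 1.08%. The abdominal total of 11 was 9 with the lymphocyte covariate, 6 with the groups compared alone, 4 without the 5 high-lymphocyte arrays, 3 without HPD arrays 3 and 4, and 0 with the adipocyte covariates. The thoracic total of 8 was 0 with the adipocyte covariates, and it was 2 without HPD array 2, 4 without SCD array 1 and 4 without SCD array 4. Fkbp5, a co-chaperone of the glucocorticoid receptor, rose by 1.79 ± 0.163 in the abdominal and 1.68 ± 0.176 in the thoracic aorta (SE; limma adjusted p = 3.11e-05 and 0.000384). The list mean was 7.86 to 8.1 in abdominal HPD, against 7.06 to 7.46 in abdominal SCD arrays. In the thoracic aorta it was 8 to 8.31 in HPD, against 7.18 to 7.45 in SCD arrays. A link between this list and Dpep1 was not tested.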

How the data were processed

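Total RNA from each sample was hybridised to 1 array. The deposited values were read as RMA-normalised log2 intensities, since both RMA and Partek appear in the submitters' processing notes, with neither version nor order. The log base was inferred from the range, 1.381 to 13.333. There were 41345 probe sets, of which 25335 are listed in the platform's gene table and 23521 name 1 gene, leaving 22180 genes by the brightest probe set. No dim gene was removed. No scanner files, scan dates or detection calls were used, so signal over background is unknown.

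A model of 4 group means was fitted in R 4.3.3 using limma 3.58.1 and the data.table package, version 1.17.8 (eBayes with an intensity trend, 11 residual degrees of freedom), two-sided, with Benjamini-Hochberg adjustment over all genes and calls at an adjusted p under 0.05. The steps were tested on simulated data. Figures used Python 3.11.15, pandas 2.3.3, numpy 2.4.6 and matplotlib 3.10.9.

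The members and gene lists were chosen with earlier results of these data known. All 8 members could be named, up to 4 genes of smallest p per list and comparison, up to 2 markers per cell list, and the 3 genes of highest Pearson's r with a member. The fits without certain abdominal arrays were chosen after seeing the data. The alternatives were quantile normalization, a replicate block, array weights, median centring, a prior without trend, a filter at the 30th percentile, a fit of the compared groups alone, averaged probe sets, an adjusted p under 0.1, lymphocyte or adipocyte covariates, and leaving out each array in turn.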

Additional observations from a re-analysis of the deposited data

Results flagged for a closer look

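Among the 21 groups of 4 arrays that could be looked at, 3 for each of the 7 genes, 2 held an array far from the others by Dixon's ratio, which chance gives in about 1 of 20. Cd34 stood at 9.53 in thoracic SCD array 4, against 9.19 to 9.24 in the other thoracic SCD arrays. Without that array the thoracic log2 change of Cd34 on HPD was -0.11. Dpep1 stood at 6.78 in thoracic SCD array 3, against 7.32 to 7.37 in the other thoracic SCD arrays. Without it the thoracic log2 change of Dpep1 was 0.87 (limma adjusted p = 0.0597).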

How the results depend on the processing

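The 5 abdominal calls held in all 8 fits that left out 1 array, as counts between 5 and 5, and under the prior without trend, the filter, the groups compared alone, both normalizations, array weights, the mean of probe sets, the looser threshold and the lymphocyte covariate. The count was 0 with the adipocyte covariates and 1 without the 5 abdominal arrays with high lymphocyte markers. The thoracic count was 0 with the adipocyte covariates and between 0 and 1 when 1 array was left out. Between segments on HPD it was 0 with the adipocyte covariates and 2 both with the lymphocyte covariate and without those 5 arrays. The cause of these losses was not tested, and the last fit rests on fewer arrays. Over all genes, the abdominal count was 1554, but 1026 with the groups compared alone, 137 without the 5 arrays, 0 with the adipocyte covariates, and 891 to 2249 when 1 array was left out. The fit with only the groups compared was not run for the difference between diet changes, which uses every group.

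The labels do not say that replicate numbers pair the arrays. Of 21 pairs of arrays with the same number, 5 had deviations that correlated above 0.1 (range -0.25 to 0.404), and in 9 of 21 the same number was the best match. The 7 pairs of the same diet and different segment, which could share a mouse, had correlations of 0.03 to 0.122, and in 5 of these 7 the same number was the best match, 3 of 3 on HPD, which is a hint from the data and not the design. With the replicate block the counts of called members were 5 and 1 for diet in the abdominal and thoracic aorta, 0 for their difference, and 4 and 0 for the segments on HPD and SCD, the same as without it.

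Signs changed only for values that had not passed the test. For Pi16 in the thoracic diet comparison the log2 change was 0.029 with the adipocyte covariates and -0.077 to 0.061 when 1 array was left out, and for Pdgfra -0.22 and -0.13 to 0.27. The Dpep1 difference between diet changes was 0.05 after quantile normalization, 0.005 with the replicate block, 0.11 with the lymphocyte and 0.28 with the adipocyte covariates, 0.53 without the 5 arrays, and -0.204 to 0.138 when 1 array was left out. Between segments on HPD, Pdgfra was 0.002 after median centring, 0.009 with array weights, 0.086 with the lymphocyte covariate, 0.07 without the 5 arrays and -0.26 to 0.14 when 1 array was left out. In that comparison Dpep1 was -0.12 with the lymphocyte and -0.11 with the adipocyte covariates and -0.29 without the 5 arrays, and Clec3b was 0.01 with the lymphocyte covariate, 0.09 without the 5 arrays and -0.1 to 0.004 when 1 array was left out. Between segments on SCD, Cd34 was 0.013 after quantile normalization, 0.017 after median centring and -0.089 to 0.072 when 1 array was left out. Dpep1 was -0.006 with the lymphocyte covariate and -0.025 to 0.277 when 1 array was left out, and Cd248 was -0.025 with the lymphocyte covariate and -0.013 without the 5 arrays. The cause was not tested.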

Other observations

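Other lists near the adventitia gave few calls by limma. Of 12 measured genes of adventitial progenitors and hedgehog signalling, 2 fell in the abdominal aorta on HPD, against 5.06% of all genes. They were the hedgehog transducer Smo at -0.34 ± 0.0896 and the hedgehog-binding Hhip at -0.58 ± 0.159 (SE; limma adjusted p = 0.032 and 0.0378). In the thoracic aorta 0 passed, and 4 had an unadjusted p under 0.05, against 13.8% of all genes. Of 13 measured relatives of Ly6a, 0 were called for diet in either segment, with 1 at an unadjusted p under 0.05 in each, and Gpihbp1, which carries lipoprotein lipase to the capillary surface, was higher in the thoracic than in the abdominal HPD arrays by 0.67 ± 0.173 (SE; adjusted p = 0.0191). In the list of tetranectin and the plasminogen system, 2 of 10 measured genes fell in the abdominal aorta, against 5.06% of all genes. They were Clec11a at -0.58 ± 0.109 and Anxa2, a plasminogen-binding annexin, at -0.41 ± 0.099 (SE; limma adjusted p = 0.00405 and 0.0206). In the thoracic aorta 0 passed, and 2 had an unadjusted p under 0.05.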
